A study of Mus musculus with 4 samples.

Results

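The dystrophin-glycoprotein complex ties the actin cytoskeleton of a muscle fibre to the laminin of its basement membrane. Dystrophin or its autosomal relative utrophin binds actin inside the cell, dystroglycan spans the membrane and holds laminin outside, the sarcoglycans stabilise the complex in the membrane, and syntrophins and dystrobrevins form a cytoplasmic scaffold on the end of dystrophin. Loss of some single members of the complex, though not of all, causes muscular dystrophies. Glucocorticoids are used to treat the form caused by loss of dystrophin. The 8 genes described here, Dmd, Utrn, Sgca, Sgcb, Sgcd, Sgce, Sntb1 and Dtna, were taken by their symbol from a table of 23282 genes. All 8 were found as 1 row each, and all 8 passed the filter on low counts together with 13285 genes in all.

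RNA bound to the chromatin of nuclei was sequenced from C2C12 myotubes, the fused, multinucleated muscle cells formed by a female mouse myoblast line. All cells had been deprived of steroids. The control group received vehicle and the other group 1 µM dexamethasone, a synthetic glucocorticoid, in each case for 2 h, with 2 libraries per group. The comparison asks which genes changed their chromatin-bound RNA within that time. C2C12 is a single established line, and the labels do not say whether libraries of a group came from separate cultures, so the p-values measure only the spread between these libraries.

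The libraries held between 19631435 and 88596296 counts, and the least counted of the 8 genes, Sgca, had 806 counts in the smallest library, where counting error alone is 3.52% of the value. The treatment is visible in known targets of the glucocorticoid receptor: Fkbp5 rose by 5.32 on the log2 scale (SE 0.263, edgeR adjusted p = 0.0429). Per1 and Tsc22d3 had log2 fold changes of 2.53 (SE 0.186) and 2.72 (SE 0.455) and did not pass the threshold of 0.05 (adjusted p = 0.117 and 0.213). Of 10 myotube markers, 9 lay higher in both replicate 1 libraries than in both replicate 2 libraries, with a summed level of 129370 and 124740 CPM (read counts relative to the library total, with TMM scaling) against 45799 and 44719. Most of these sums came from Ttn alone, at 118130 and 113350 CPM in the replicate 1 libraries and 41070 and 39943 CPM in the replicate 2 libraries. None of the 10 was at 0, though Ckm was at only 6.98 and 7.72 CPM in the replicate 2 libraries. The summed level of these markers followed the replicate number and not the treatment. Markers of other cells were low: the summed level ran from 42.0 to 61.3 CPM for 6 genes of proliferating myoblasts, from 9.17 to 15.2 for 4 fibroblast genes, from 2.96 to 3.94 for 4 immune genes, from 1.90 to 2.47 for 4 endothelial genes, from 5.27 to 5.80 for 4 Schwann cell genes and from 0.107 to 0.184 for 4 adipocyte genes. None of these sums is corrected for gene length, so they are not a measure of cell shares. Thy1, Lum and Cidec were listed at 0 in all libraries. Cd3e of the immune list was too, but it lies in a run of 164 neighbouring genes on the minus strand of chromosome 9 without a single count, and its 0 is no measurement. Pax7, a marker of undifferentiated myogenic cells, was at 32.0 and 39.0 CPM in vehicle and 17.9 and 22.9 CPM in dexamethasone (edgeR adjusted p = 0.456). The other 5 genes of the proliferating myoblast list, Myf5, Mki67, Top2a, Ccnb1 and Cdk1, had log2 fold changes above 0, from 0.07 to 0.30, and overlapped between the groups. Of the 2 fibroblast genes tested, Pdgfra was at 6.12 and 4.30 CPM in vehicle against 9.14 and 12.05 CPM in dexamethasone (edgeR adjusted p = 0.503), and Dcn lay the other way, at 5.26 and 4.88 against 3.97 and 3.17 CPM (adjusted p = 1.00). In these bulk libraries, fewer cells of a type and less RNA per cell cannot be told apart.

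Upstream sequences from RefSeq (GRCm38.p6) are shown for the 3 genes of the complex whose RNA, like that of the myotube markers, was higher in both replicate 1 libraries and whose window holds an E-box, the CANNTG element bound by MyoD-family myogenic factors. Each run is the 250 bases before the annotated start, 5′ to 3′ on the gene's own strand, with E-boxes in capitals: Dmd (first start, chrX:82948620-82948869, plus strand), Sgca (chr11:94976328-94976577, minus strand) and Sgcd (chr11:47379326-47379575, minus strand). These coordinates are those of the RefSeq table and not of the count table.
Dmd: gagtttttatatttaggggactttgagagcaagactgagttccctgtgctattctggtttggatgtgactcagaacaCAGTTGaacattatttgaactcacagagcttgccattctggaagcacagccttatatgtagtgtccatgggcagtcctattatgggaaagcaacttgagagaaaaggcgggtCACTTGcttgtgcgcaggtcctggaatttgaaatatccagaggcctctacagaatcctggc
Sgca: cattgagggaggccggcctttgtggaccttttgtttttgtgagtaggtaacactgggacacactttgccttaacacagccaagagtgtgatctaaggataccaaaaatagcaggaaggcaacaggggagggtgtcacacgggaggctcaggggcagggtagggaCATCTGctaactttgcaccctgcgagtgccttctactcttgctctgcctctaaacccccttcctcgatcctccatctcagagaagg
Sgcd: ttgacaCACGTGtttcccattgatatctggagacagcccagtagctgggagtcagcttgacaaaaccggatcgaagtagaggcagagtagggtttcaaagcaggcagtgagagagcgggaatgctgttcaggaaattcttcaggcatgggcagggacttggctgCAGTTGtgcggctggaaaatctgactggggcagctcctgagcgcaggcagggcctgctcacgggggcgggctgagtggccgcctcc
The Dmd and Sgcd windows hold 2 E-boxes each and the Sgca window 1. The Utrn window holds 7, a pair of which overlap, and neither the Sgcb window nor the window at a second Dmd start holds any. An E-box stands in 66.2% of all 32851 windows of this length, so its presence does not set these genes apart. CAGCTG, the form of the E-box that MyoD prefers, was in none of the 6 windows of these 5 genes and in 4271 of the 32851 windows. AGAACA, a half-site of the glucocorticoid receptor element, was searched for on either strand. It was found once in each of the Dmd windows, in no window of Utrn, Sgca, Sgcb or Sgcd, and in 16.1% of all windows. Full receptor sites were not searched for. No window of Sgce, Sntb1 or Dtna was examined, so motifs near their starts are not known here. A match describes letters only and shows no binding.

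Dtna, which encodes α-dystrobrevin, the scaffold protein that binds dystrophin and syntrophins, had the largest log2 fold change between vehicle and dexamethasone of the 8 genes. It had 653 and 476 CPM in the vehicle libraries and 1648 and 1208 CPM in the dexamethasone libraries, from 12174, 18078, 49403 and 112807 counts. Both dexamethasone libraries lay far above both vehicle libraries, and the groups did not overlap. The group means were 565 ± 125 and 1428 ± 311 CPM (SD, n = 2 each), a difference larger than the SD of either group. The ratio of dexamethasone to vehicle was 2.52 between the replicate 1 libraries and 2.54 between the replicate 2 libraries. The fitted log2 fold change was 1.34 (SE 0.251, 95% interval 0.67 to 2.00), a 2.53-fold difference with an interval of 1.59 to 4.01, and 1.36% of all tested genes had a larger one. Its edgeR adjusted p over all genes, 0.261, did not pass the threshold. DESeq2's Wald test gave an adjusted p of 0.000197 for a log2 fold change of 1.33 (SE 0.278). Over all alternative settings the adjusted p ran from 3.46e-05 to 0.4996, and the log2 fold change lay between 1.104 and 1.59, lowest without dexamethasone replicate 1 and highest without vehicle replicate 1.

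Its close relative Dtnb, the gene of β-dystrobrevin, had 45.2 and 52.4 CPM in vehicle and 43.4 and 51.8 CPM in dexamethasone. These values overlapped between the groups, with a log2 fold change of -0.03 (SE 0.164, edgeR adjusted p = 1.00). Within a library, the ratio of Dtna to Dtnb counts was 14.5 and 9.08 in vehicle and 37.9 and 23.3 in dexamethasone. Ratios of counts within 1 library do not depend on how libraries are scaled. The ratio of Dtna to Dmd counts, at 0.268 and 0.336 in vehicle, was 0.656 and 0.836 in dexamethasone, again without overlap.

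**Figure D1:**
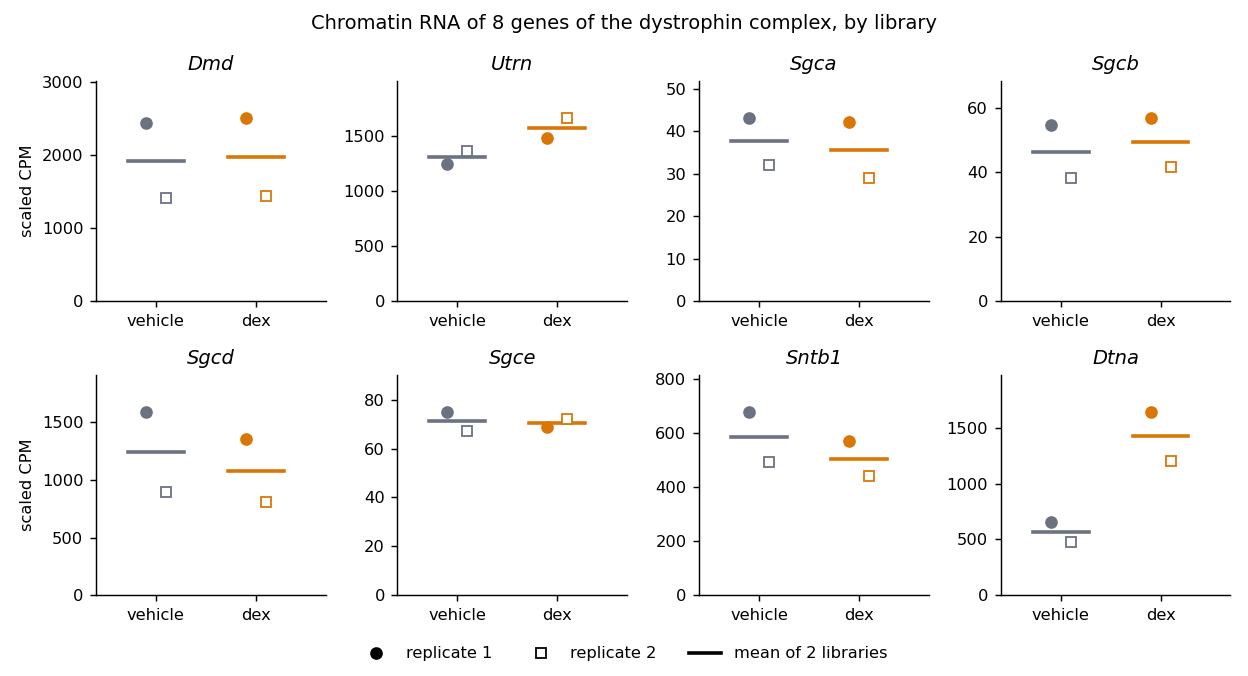
Level of each of the 8 genes in scaled CPM (vertical axes, each from 0) in vehicle and dexamethasone libraries, with filled circles for replicate 1, open squares for replicate 2 and a line at the mean of the 2 libraries. Dtna was at 653 and 476 CPM in vehicle against 1648 and 1208 CPM in dexamethasone, while Dmd, Sgca, Sgcb, Sgcd and Sntb1 lay higher in replicate 1 than in replicate 2 in both groups.

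Utrn, which encodes utrophin, the dystrophin relative that is found along the membrane of immature fibres and at the neuromuscular junction, showed the second largest log2 fold change of the 8 genes. Its level was 1240 and 1364 CPM in vehicle and 1475 and 1662 CPM in dexamethasone. The groups did not overlap, with both dexamethasone libraries higher, but the gap between them was narrow. The mean was 1302 ± 87.8 CPM in vehicle and 1568 ± 132 CPM in dexamethasone (SD, n = 2 each). The fitted log2 fold change was 0.27 (SE 0.151, 95% interval -0.13 to 0.67). This did not pass the threshold (edgeR adjusted p = 1.00). The ratio of dexamethasone to vehicle was 1.19 in replicate 1 and 1.22 in replicate 2.

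Dmd, the X-linked gene of dystrophin, had 2436 and 1417 CPM in vehicle and 2513 and 1445 CPM in dexamethasone. The high values were those of the replicate 1 libraries in either group, and vehicle and dexamethasone overlapped. The log2 fold change was 0.04 (SE 0.392, edgeR adjusted p = 1.00), and its 95% interval, from -0.9996 to 1.08, reaches up to a 2.11-fold higher level. Within a replicate number the ratio of dexamethasone to vehicle was 1.03 and 1.02. The sign of this small value varied when a library was left out, at -0.41 without dexamethasone replicate 1 and 0.48 without vehicle replicate 1. Such fits leave the replicate numbers unequal between the groups, so their values mix the treatment with the difference between replicate numbers.

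The ratio of Utrn to Dmd counts within a library was 0.509 and 0.963 in vehicle replicates 1 and 2, and 0.587 and 1.15 in dexamethasone replicates 1 and 2. It was thus higher in replicate 2 than in replicate 1 in both groups, by a wider margin than between vehicle and dexamethasone of the same number.

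The sarcoglycans form a membrane subcomplex, in which α-sarcoglycan (Sgca) is specific to striated muscle, ε-sarcoglycan (Sgce) is its widely expressed relative, and β- and δ-sarcoglycan (Sgcb, Sgcd) are core subunits. Sgca had 43.2 and 32.2 CPM in vehicle and 42.3 and 29.1 CPM in dexamethasone, with overlapping groups and a log2 fold change of -0.08 (SE 0.260). Sgcb had 54.6 and 38.2 CPM in vehicle and 56.8 and 41.6 CPM in dexamethasone, also overlapping, with a log2 fold change of 0.09 (SE 0.258). In Sgca and Sgcb the libraries ordered by replicate number and not by treatment.

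Sgcd had 1594 and 899 CPM in vehicle and 1353 and 808 CPM in dexamethasone. Its log2 fold change was -0.21 (SE 0.388, 95% interval -1.23 to 0.82), and dexamethasone lay lower within either replicate number, with ratios of 0.849 and 0.899. Sgce had 75.2 and 67.3 CPM in vehicle and 69.0 and 72.0 CPM in dexamethasone, with a log2 fold change of -0.01 (SE 0.129). Its interval of -0.36 to 0.33 is the narrowest of the 8 genes, and its libraries showed no order by treatment or by replicate number. None of the 4 sarcoglycans passed the threshold (edgeR adjusted p = 1.00 for each). In the fits that left out a library in turn, the sign of all 4 changed, with ranges of -0.36 to 0.17 for Sgca, -0.15 to 0.37 for Sgcb, -0.62 to 0.27 for Sgcd and -0.08 to 0.07 for Sgce. Here too the replicate numbers are unequal between the groups, and the values mix treatment and replicate number.

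Sntb1, which encodes β1-syntrophin, an adaptor that binds dystrophin, utrophin and dystrobrevin and recruits signalling proteins, had 681 and 493 CPM in vehicle and 571 and 440 CPM in dexamethasone. The groups overlapped, and the log2 fold change of -0.22 (SE 0.232, 95% interval -0.83 to 0.40) did not pass the threshold (edgeR adjusted p = 1.00). Dexamethasone was lower within either replicate number, at ratios of 0.838 and 0.892. Without vehicle replicate 1, which leaves the replicate numbers unequal between the groups, the value was 0.04.

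**Figure D2:**
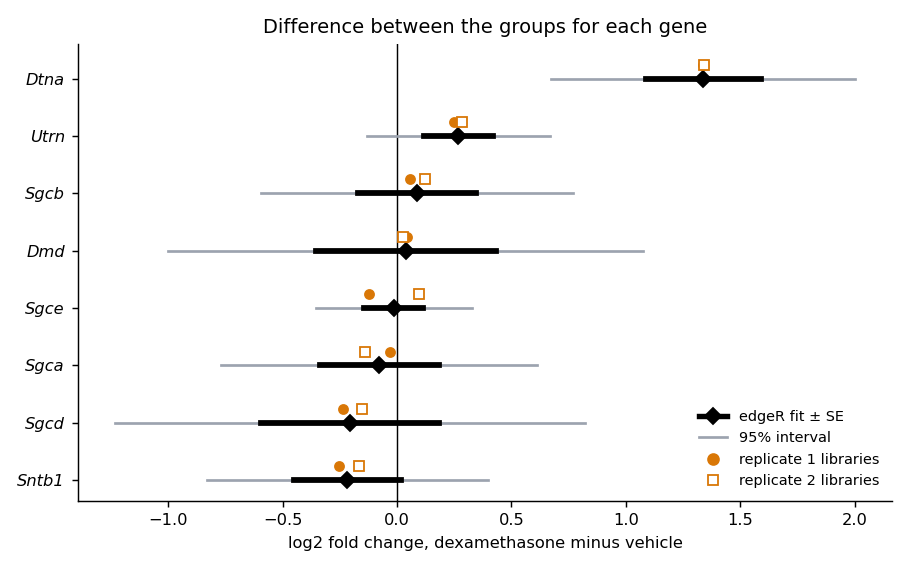
Log2 fold change of each gene, dexamethasone minus vehicle, from the edgeR fit (diamond, thick bar ± SE, thin bar 95% interval) with the log2 ratio between libraries of the same replicate number above it. The interval of Dtna runs from 0.67 to 2.00, and those of the other seven genes include 0.

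Of the 8 genes, 0 passed edgeR's adjusted threshold, against 0.0376% of all genes tested (limma-voom also called 0, and DESeq2's Wald test called Dtna alone, against 2.17% of all genes). With an unadjusted edgeR p under 0.05, 1 of the 8 lay higher in dexamethasone (Dtna), as did 4.09% of all genes, and 0 lay lower, as did 1.69%. Both dexamethasone libraries exceeded both vehicle libraries in 2 of the 8 (Dtna and Utrn) and were below them in 0, against 15.0% and 12.9% of all genes. Signs were split evenly, with 4 genes above 0 and 4 below, and the median log2 fold change was 0.01, beside 0.00 over all genes tested.

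Most of the 8 genes were ordered by replicate number, as were most of all genes tested. In 5 of the 8, each replicate 1 library exceeded each replicate 2 library (Dmd, Sgca, Sgcb, Sgcd and Sntb1), and in 0 the order was the opposite, against 31.8% and 32.1% of all genes. The ratio of replicate 1 to replicate 2 was 1.72 in vehicle and 1.74 in dexamethasone for Dmd. It was 1.77 and 1.67 for Sgcd, 1.34 and 1.45 for Sgca, 1.43 and 1.37 for Sgcb and 1.38 and 1.30 for Sntb1. Dtna showed the same order within each group (1.37 and 1.36). Utrn had ratios below 1 in both groups (0.909 and 0.887), and those of Sgce lay on different sides of 1 (1.12 and 0.959). The median log2 difference of replicate 1 from replicate 2 was 0.46 in vehicle and 0.45 in dexamethasone over the 8 genes, -0.01 in both groups over all genes, and 1.56 and 1.60 over the myotube markers. The part of those markers in the split of the 8 genes was not tested.

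**Figure D3:**
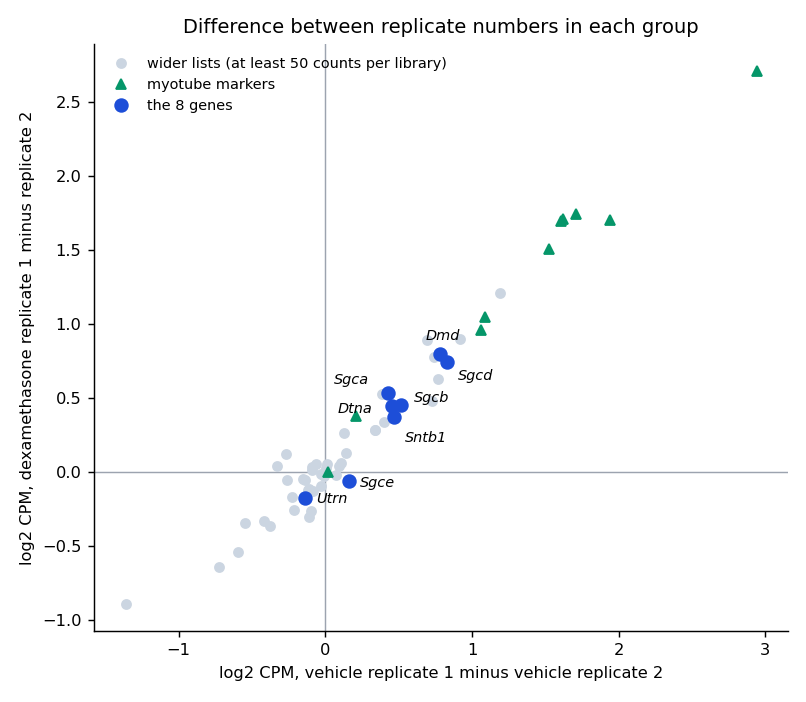
Log2 CPM of replicate 1 minus replicate 2 in vehicle (horizontal) and dexamethasone (vertical) for the 8 genes (blue), the 10 myotube markers (green triangles) and genes of the wider lists with at least 50 counts in every library (grey). Of the 8 genes, Dmd and Sgcd had the largest differences, 0.78 and 0.80 for Dmd and 0.83 and 0.74 for Sgcd, and Utrn lies below 0 on both axes.

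Among the 8 genes, the profiles over the 4 libraries (log2 CPM centred on each gene's mean) were closest for Sgca and Sntb1, at a root mean square difference of 0.0848, for Sgca and Sgcb at 0.0992, and for Dmd and Sgcd at 0.118. Dtna was at least 0.616 from every other member. Of all tested genes, the 3 nearest to Dmd were Thbd (0.00893), Tbc1d9 (0.0140) and Rtp4 (0.0157), the 3 nearest to Utrn were Phtf1 (0.0134), Fmnl2 (0.0168) and Spidr (0.0174), and the 3 nearest to Sgca were Cep350 (0.0140), Tpm3 (0.0154) and Ptprm (0.0214). With 4 libraries such likeness is common, and 248, 655 and 557 genes lay within 0.1 of Dmd, Utrn and Sgca.

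Levels of different genes can be compared only per length, and the order depended on which length was used. Per kilobase of exon (GENCODE M21, all exons of a gene merged), vehicle levels were highest for Sgcd, at 151 ± 59.5 CPM per kilobase (SD, n = 2), followed by Sntb1 (110 ± 24.9), Dmd (80.9 ± 30.3), Utrn (76.1 ± 5.13), Dtna (33.4 ± 7.38), Sgca (21.7 ± 4.52), Sgcb (11.4 ± 2.87) and Sgce (6.71 ± 0.527). The vehicle libraries of Sgcd and Sntb1, of Sntb1 and Dmd, and of Dmd and Utrn overlapped. Compared within a library, Sgcd exceeded Sntb1 and Sntb1 exceeded Dmd in each of the 4 libraries. Dmd exceeded Utrn in both replicate 1 libraries (102 against 72.5 and 106 against 86.2 CPM per kilobase of exon) and lay below it in both replicate 2 libraries (59.5 against 79.7 and 60.7 against 97.1). In dexamethasone Dtna was at 84.4 ± 18.4 and Utrn at 91.7 ± 7.73 CPM per kilobase of exon. There Dtna exceeded Utrn in replicate 1 (97.4 against 86.2) and lay below it in replicate 2 (71.4 against 97.1).

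Per kilobase of the whole gene, introns included, the vehicle order was Sgcb (3.08 ± 0.773), Sgca (2.78 ± 0.579), Utrn (2.67 ± 0.180), Dtna (2.31 ± 0.511), Sntb1 (2.17 ± 0.490), Sgcd (1.14 ± 0.450), Sgce (0.977 ± 0.0767) and Dmd (0.853 ± 0.319). The vehicle libraries of neighbours among the first 5 overlapped, as did those among the last 3, though Sgcb exceeded Sgca in each of the 4 libraries. On this scale the highest level was 3.61 times the lowest, against 22.5 times per kilobase of exon. Dmd covers 2257 kilobases with 23.8 kilobases of exon and Sgcd 1093 kilobases with 8.26, while Sgca covers 13.5 kilobases. Whether the counts cover introns is not given in the sources used here. The scale bears on levels between genes only and not on differences between groups. Of genes in the count table, those that overlap a member were Tsga8, inside Dmd with 0 counts, and Hils1, overlapping Sgca with at most 16. Each is on the opposite strand and shares no exon bases with the member.

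The wider complex was then described from 4 lists, 49 genes in all, of which 46 were tested. None passed edgeR's adjusted threshold. At an unadjusted edgeR p under 0.05, 3 had a higher and 1 a lower level in dexamethasone, against 4.09% and 1.69% of all genes. The median log2 fold change was -0.02, with 22 above 0 and 24 below. The first list holds 11 other proteins of the complex, 9 of them tested, with a median of -0.06, 3 above 0 and 6 below, and none at an unadjusted p under 0.05. The highest value was that of Cav3, the gene of caveolin 3, the muscle caveolin, with 113 and 115 CPM in vehicle and 133 and 142 CPM in dexamethasone (log2 fold change 0.27, SE 0.117, edgeR adjusted p = 0.977). Its groups did not overlap. The lowest value of the list was that of Nos1, the neuronal nitric oxide synthase that syntrophin anchors, at -0.31 (SE 0.763), on 19 to 248 counts. Dag1, the gene of dystroglycan itself, was listed at 0 in all libraries. It lies in a run of 371 neighbouring genes on the minus strand of chromosome 9 that were all listed at 0, as does Pomgnt2 of the glycosylation list, so neither was measured here. Sntg2 had at most 3 counts and was not tested.

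The list of laminins and laminin receptors, to which Agrn, Hspg2 and Nid1 were added, held both the highest and the lowest log2 fold change of the 4 lists. All 12 were tested, with 5 above 0, 7 below and a median of -0.13. Lama1, the α1 chain of laminin, had 62.2 and 80.8 CPM in vehicle and 126 and 161 CPM in dexamethasone (log2 fold change 1.00, SE 0.208, edgeR adjusted p = 0.321). Lamc1, the γ1 chain shared by most laminins, had 139 and 138 CPM in vehicle and 198 and 194 CPM in dexamethasone (0.50, SE 0.114, adjusted p = 0.377). Nid1, which encodes nidogen, a linker of laminin and collagen IV, had 47.0 and 68.9 CPM in vehicle and 26.2 and 33.3 CPM in dexamethasone (-0.96, SE 0.250, adjusted p = 0.479). In each of Lama1, Lamc1 and Nid1 the groups did not overlap. The groups did not overlap in 10 of the 12 genes of this list, 5 higher and 5 lower, against 15.0% and 12.9% of all genes.

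Of 17 genes that glycosylate dystroglycan or make the sugars for it, 16 were tested, with a median of 0.05, 10 above 0 and 6 below. The largest value was that of B3galnt2, an enzyme that extends the O-mannose glycan of dystroglycan, with 84.3 and 90.1 CPM in vehicle and 126 and 152 CPM in dexamethasone (0.67, SE 0.147, edgeR adjusted p = 0.348). The lowest was that of Pomt1, an O-mannosyltransferase, at -0.24 (SE 0.164, adjusted p = 1.00). All 9 cytoskeletal partners were tested, with a median of -0.01, from -0.21 for Actg1 (SE 0.555) to 0.45 for Flnc, the gene of filamin C (SE 0.443), and none at an unadjusted p under 0.05.

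**Figure D4:**
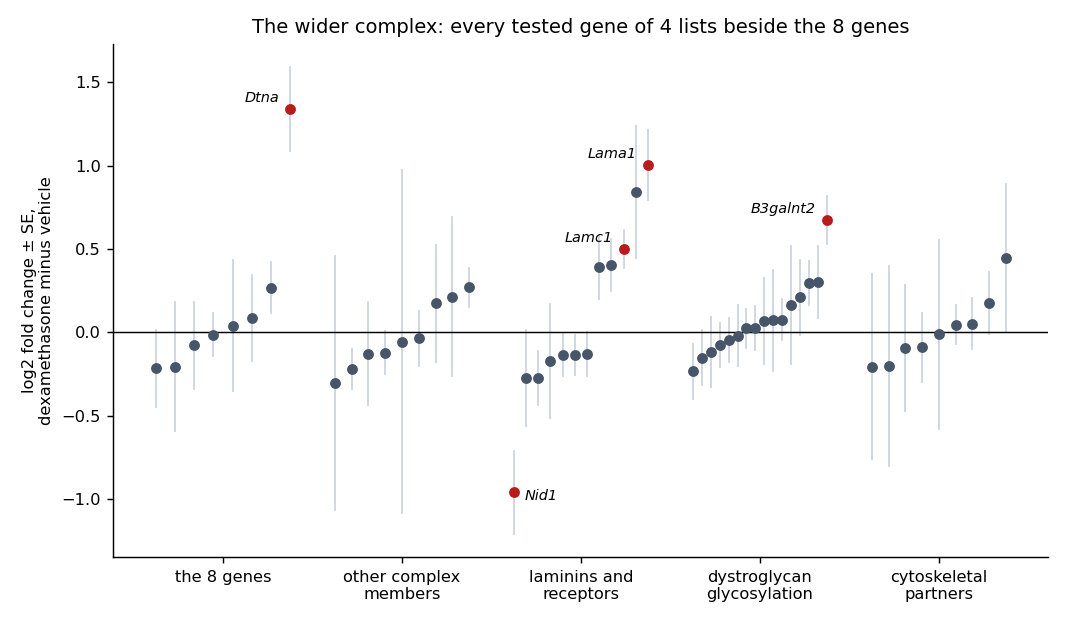
Log2 fold change ± SE, dexamethasone minus vehicle, for the 8 genes and for the 46 tested genes of the 4 wider lists, ordered by value within a list, with genes at an unadjusted edgeR p under 0.05 in red. Dtna lies highest at 1.34, followed by Lama1 at 1.00, and Nid1 lies lowest at -0.96.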

How the data were processed

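The deposited table holds raw read counts per gene for the whole series, made by the authors. Per the submitters' processing notes, TopHat2 2.0.13, SAMtools 1.1, HTSeq 0.6.1, DESeq2 1.18.1 and the mm9 build were used. The annotation, the counted feature and the strand setting are not given in the sources used here. The labels name both a stranded total RNA kit and a stranded mRNA kit. Columns were matched to samples by group and replicate number.

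Of 23333 rows, 51 that repeated an earlier row were dropped. After filterByExpr (minimum count 10, minimum total 15) and TMM scaling, 13285 genes were tested with edgeR 4.0.16 (R 4.3.3) by the two-sided quasi-likelihood test, fitted with a group term and no covariate (2 residual degrees of freedom) and Benjamini-Hochberg adjustment over all genes (threshold 0.05). Log2 values for profiles carry a prior count of 2. Alternatives were 3 other scalings, 2 other filters, DESeq2 1.42.0, limma-voom (limma 3.58.1), the replicate number as a block, alone or with a gene length correction (loess span 0.3), and leaving out each library. The code of the tests was checked on simulated data, which does not measure how often the tests err in these data. Members and lists were chosen with earlier results of these data known, and motifs after seeing the values. Genes of the wider lists were named at an unadjusted edgeR p under 0.05, as the extremes of a list, or if not tested. Dtnb was named outside this rule, as the close relative of Dtna. Treatment checks, cell markers and the nearest profiles were also named apart from it. A gene of the wider lists is not reported here and was left out of their counts.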

Additional observations from a re-analysis of the deposited data

How the results depend on the processing

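Against 5 genes called by edgeR (all higher), edgeR without the filter called 23, DESeq2's Wald test 288 and limma-voom 0 (at an unadjusted p under 0.05 it gave 540 genes higher, 231 lower). Leaving out a library called 4 (without vehicle replicate 1) to 193 (without vehicle replicate 2); here the lone library is assumed to vary like the other group. The cause was not tested. Of the 8 genes, DESeq2 called 1 (Dtna), and no fit without a library called any.

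No label ties libraries of equal replicate number to a common day or batch. Across genes, which are not independent, the replicate 1 to replicate 2 difference in vehicle had an r of 0.734 with that in dexamethasone. With the replicate number as a block, 1681 of 13285 genes were called (12.7%), 2 of the 8 genes among them: Dtna (log2 fold change 1.34, SE 0.0502, adjusted p = 6.11e-05) and Utrn (0.27, SE 0.0490, 0.0167). In this edgeR fit Sgcd (-0.19, SE 0.0517, adjusted p = 0.0604) and Sntb1 (-0.21, SE 0.0537, adjusted p = 0.0539) did not pass the threshold. The adjusted p of Dmd, Sgca, Sgcb and Sgce ran from 0.422 for Sgcb to 0.967 for Sgce. With a gene length correction added, 1794 were called (13.5%), again Dtna and Utrn, 2 of the 8. The block lowered edgeR's common coefficient of variation from 0.245 to 0.0552.

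The sign of Dmd turned under library size scaling alone (-0.00082) and that of Sgce with no filter (0.0019). Over the fits that each left out a library, values ran from -0.41 to 0.48 for Dmd, -0.36 to 0.17 for Sgca, -0.15 to 0.37 for Sgcb, -0.62 to 0.27 for Sgcd, -0.085 to 0.069 for Sgce and -0.42 to 0.035 for Sntb1. Replicate numbers are unequal between the groups in these fits, so the values mix treatment and replicate number. Of 104 values of single members, 86 kept their direction and call, 5 passed the threshold in addition and 13 changed sign. Dtna and Utrn changed sign in none.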
